A study of Mus musculus with 16 samples.

Results

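Collagens, laminins and integrins are the genes of the extracellular matrix and of the receptors that hold cells to it. They were taken here by symbol from the table of read counts per gene. Every known gene named Col, Lama, Lamb, Lamc, Itga or Itgb with a chain number was included. This leaves out integrin subunits named by a letter, such as Itgav, Itgal, Itgae, Itgam and Itgax. The rule gave 74 genes of 26625 in the table, of which 44 encode collagen chains, 11 laminin chains and 19 integrin subunits. The study asked how lowering Kdm7a, a histone demethylase, in the medial prefrontal cortex (mPFC) bears on morphine reward memory. All 16 mice were male C57BL/6 animals of 8 to 10 weeks that received an AAV injection into the mPFC on both sides and were then trained for conditioned place preference. The AAV carried either a control hairpin (Ctrl) or a hairpin against Kdm7a (Kdm7a-shRNA) under the U6 promoter, with EGFP under the CMV promoter, neither of which is restricted to a cell type. Training used saline or morphine at 10 mg/kg, and tissue was taken on withdrawal day 7. The control virus was given to 3 mice trained with saline (Ctrl + Saline) and 4 trained with morphine (Ctrl + Morphine), and the Kdm7a virus to 5 trained with saline (Kdm7a-shRNA + Saline) and 4 trained with morphine (Kdm7a-shRNA + Morphine). The whole mPFC was sequenced as full-length cDNA on the Nanopore platform. In such bulk tissue, fewer cells of a type and less RNA per cell cannot be told apart. Each mouse had a single virus, so a lower level of Kdm7a and any other effect of that vector cannot be told apart either.

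Collagens are built from alpha chains wound together into a helix. Some form fibrils, collagen IV forms the sheet of the basement membrane, and collagen VI forms beaded microfibrils beside it. Laminins are cross-shaped trimers of an alpha, a beta and a gamma chain that polymerize on the cell surface and organize the basement membrane. Integrins are pairs of an alpha and a beta subunit that bind these ligands outside the cell and link them to actin inside it. In the brain, most of this matrix lies around blood vessels and under the meninges, while neurons, astrocytes and microglia carry their own integrins.

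Each mouse gave 6596991 to 12418112 reads on genes, of which the 74 genes together took 0.0210% to 0.0439%. Kdm7a-shRNA + Morphine mouse 3 had both the most reads and the highest share, and Kdm7a-shRNA + Morphine mouse 4 the lowest share. Kdm7a, the targeted gene, had counts of 74, 93 and 71 in Ctrl + Saline mice, 78, 58, 73 and 75 in Ctrl + Morphine mice, 50, 43, 51, 54 and 49 in Kdm7a-shRNA + Saline mice, and 41, 37, 35 and 45 in Kdm7a-shRNA + Morphine mice. It fell by 0.76 ± 0.20 (SE) on the log2 scale under saline (adjusted p = 0.0153). Under morphine its log2 fold change was -0.67 ± 0.21 (SE), and the adjusted p-value of 0.0506 was just over the threshold. Adjusted p-values here and below are from edgeR's quasi-likelihood test with Benjamini-Hochberg adjustment over 18826 tested genes, and a gene is said to pass, rise or fall only where that value was below 0.05 and the level changed by 1.5-fold or more. Without Ctrl + Saline mouse 3 the adjusted p-value of Kdm7a under saline was 0.0533. Under morphine Kdm7a passed with DESeq2 (adjusted p = 0.0354), edgeR's exact test (0.0339) and scaling by library size alone (0.0301). No other setting that kept every mouse gave a pass there. It also passed under morphine without Ctrl + Morphine mouse 2 (0.0339) or Kdm7a-shRNA + Morphine mouse 1 (0.0431) or 4 (0.0282), but not without any other mouse. On the normalized scale Kdm7a-shRNA + Morphine mouse 1 lay above Ctrl + Morphine mouse 2, and the other mice of these groups did not overlap. All 7 neuron markers examined had at least 36 counts in every mouse.

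The sequences around the start site are shown first for 4 genes whose level differed between the viruses, a collagen and an integrin that fell and a collagen and an integrin that rose. They are windows of 300 bases, from 250 before to 50 after the RefSeq start site on GRCm38.p6, written 5′ to 3′ on the gene's own strand. Of the 74 genes, 54 matched the RefSeq windows by symbol. Capitals mark 4 motifs searched on both strands, whose matches do not overlap in these windows: the GC box GGGCGG, the box written CCAAT, the TATA box with letters TATAAA, and the AP-1 site with letters TGACTCA.
Col6a1, chr10:76725995-76726294, minus strand: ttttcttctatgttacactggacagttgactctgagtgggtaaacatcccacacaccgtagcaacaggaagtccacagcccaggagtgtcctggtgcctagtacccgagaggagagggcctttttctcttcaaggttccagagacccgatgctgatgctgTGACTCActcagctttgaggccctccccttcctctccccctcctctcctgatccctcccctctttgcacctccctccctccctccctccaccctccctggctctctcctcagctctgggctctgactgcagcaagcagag
Itga8, chr2:12301895-12302194, minus strand: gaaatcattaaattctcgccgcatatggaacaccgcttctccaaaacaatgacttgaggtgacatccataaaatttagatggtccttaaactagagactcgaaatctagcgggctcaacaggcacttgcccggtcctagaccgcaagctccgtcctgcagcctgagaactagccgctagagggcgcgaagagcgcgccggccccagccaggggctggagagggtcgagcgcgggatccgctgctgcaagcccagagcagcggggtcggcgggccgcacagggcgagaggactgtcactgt
Col4a5, chrX:141475169-141475468, plus strand: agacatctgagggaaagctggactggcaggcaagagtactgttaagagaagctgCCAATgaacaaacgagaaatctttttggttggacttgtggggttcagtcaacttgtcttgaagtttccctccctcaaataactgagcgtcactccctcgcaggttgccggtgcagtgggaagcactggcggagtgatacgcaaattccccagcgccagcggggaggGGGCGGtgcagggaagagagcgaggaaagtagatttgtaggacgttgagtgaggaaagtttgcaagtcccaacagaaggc
Itgb5, chr16:33829415-33829714, plus strand: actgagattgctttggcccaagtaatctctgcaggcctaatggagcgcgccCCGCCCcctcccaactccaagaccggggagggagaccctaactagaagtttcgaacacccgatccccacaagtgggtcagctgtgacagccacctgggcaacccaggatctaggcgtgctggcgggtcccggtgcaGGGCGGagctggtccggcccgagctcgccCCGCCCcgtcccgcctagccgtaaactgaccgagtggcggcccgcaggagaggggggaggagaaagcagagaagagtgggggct
The windows differed in base composition. That of Col6a1 held 3 CG dinucleotides and 1 AP-1 letter match, while that of Itga8 held 23 CG dinucleotides and none of the 4 motifs. Col4a5 had 11 CG dinucleotides, 1 GC box and 1 CCAAT match, and Itgb5 had 20 and 3 GC boxes. Over all 32851 windows, 35.7% held a GC box, 37.4% CCAAT, 13.6% a TATA box and 5.2% the AP-1 letters. Among the 59 windows of the collagen, laminin and integrin genes these shares were 55.9%, 27.1%, 8.47% and 3.39%, and the median number of CG dinucleotides was 12 against 7 over all windows. These are letter matches and say nothing of binding.

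Levels were compared between genes as normalized CPM (read counts scaled to a common library size) per kilobase of the longest coding transcript. In Ctrl + Saline mice the highest was Itgb1, the beta subunit shared by most laminin and collagen receptors, at 8.17 CPM per kb. Itgb5, which pairs with the alpha v subunit to bind vitronectin, followed at 7.55. Among matrix genes the highest was Col15a1, a vascular basement membrane collagen, at 3.75, before Col6a1 at 2.50. The laminin receptor subunit Itga6 stood at 2.60, the leukocyte and microglial subunit Itgb2 at 2.16, and Itga7, a further laminin receptor subunit, at 2.06. Among laminin chains on this scale, Lamb1 was at 1.24, Lamb2 at 0.719, Lamc1 at 0.70 and Lama2 at 0.319 CPM per kb. Dividing by length sets part of this order, since a full-length read can stand for a whole transcript: without it, Lamb1 at 7.19 ± 1.97 (SD, n = 3) normalized CPM was not below Itgb2 at 6.43 ± 1.76 (SD, n = 3). The spread between mice was wide against these steps: on the scale of normalized CPM without length, Itgb1 had 31.2 ± 1.12 (SD, n = 3) and Itgb5 24.8 ± 6.48 (SD, n = 3) in Ctrl + Saline mice. Fibril-forming collagens ranged from Col1a2 at 1.05 down to Col2a1 at 0.00865 CPM per kb. Itgb5 was level with Itgb1 in Ctrl + Morphine mice, at 9.34 and 9.31 CPM per kb, and above it with the Kdm7a-shRNA virus, at 22.7 and 10.9 under saline and 13.1 and 9.80 under morphine, as the plot of levels by class shows.

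**Figure D1:**
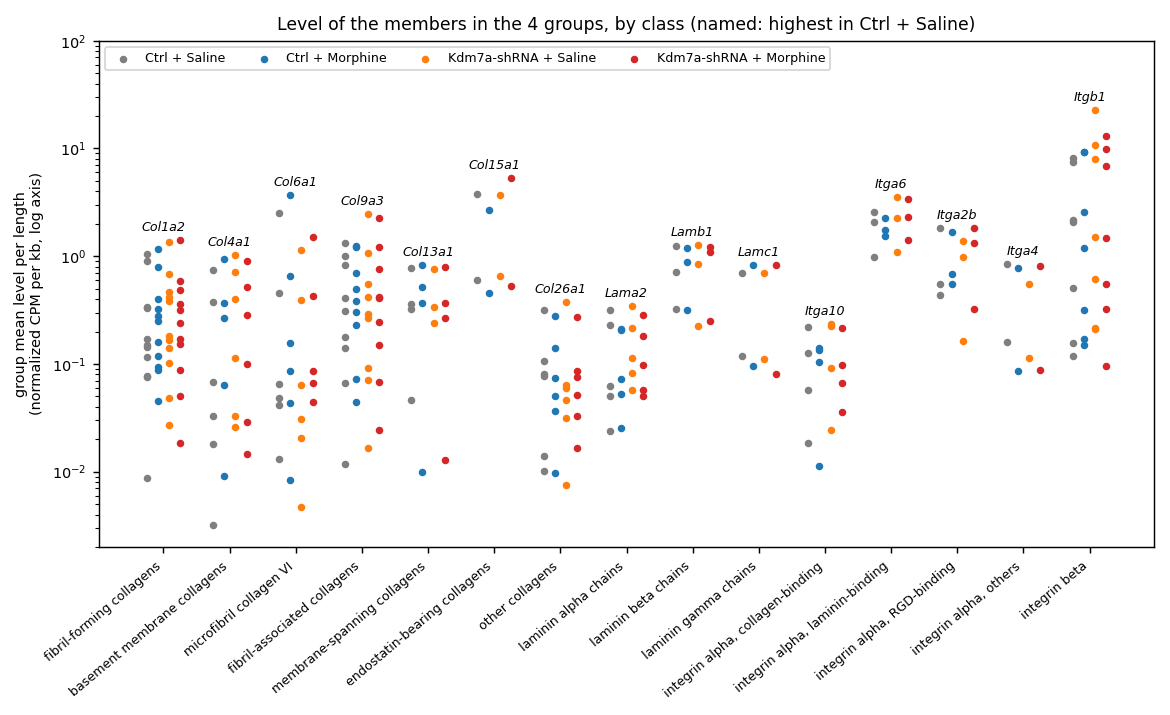
Mean level of 73 of the 74 genes in each group, in normalized CPM per kb of the longest coding transcript on a log axis, by class and coloured by group. Itgb1 at 8.17 CPM per kb was the highest in Ctrl + Saline mice. Points with a mean of 0 (Col4a4 in Ctrl + Morphine, Col6a5 in Kdm7a-shRNA + Morphine and Col17a1 in Kdm7a-shRNA + Saline) cannot be drawn on a log axis.

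Of the 74 genes, 53 had enough reads to be tested: 29 collagens, 9 laminins and 15 integrins. When the virus effect was averaged over both treatments, 9 rose and 3 fell in Kdm7a-shRNA mice. Col4a5, Itgb2, Itgb5, Itga5, Col9a3, Col1a1, Itga6, Itga1 and Lamb2 were higher, and Col6a4, Col6a1 and Itga8 were lower. Of these, Col6a4 had enough reads to be tested only through the Ctrl + Morphine mice, where it was highest. Over all tested genes 17.6% passed in this comparison, and among known genes 9.17% rose and 2.12% fell. The median log2 difference of the 53 genes was 0.09, against 0.07 over all tested known genes. Under saline alone 4 rose and 3 fell, where 16.7% of all genes passed and 9% of known genes rose and 2.98% fell. Under morphine alone 2 rose and 1 fell, where 7.69% of all genes passed and 3.37% of known genes rose and 1.27% fell. Scaling by library size alone put the median log2 difference of all genes at -0.11 on average, -0.11 under morphine and -0.12 under saline. It left 6 higher and 3 lower on average, and gave 2 higher and 2 lower under morphine and 4 higher and 4 lower under saline. Col6a1 was the single gene of the 53 for which all 9 Kdm7a-shRNA mice lay on the same side of all 7 Ctrl mice, a pattern that 2.76% of tested known genes had.

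**Figure D2:**
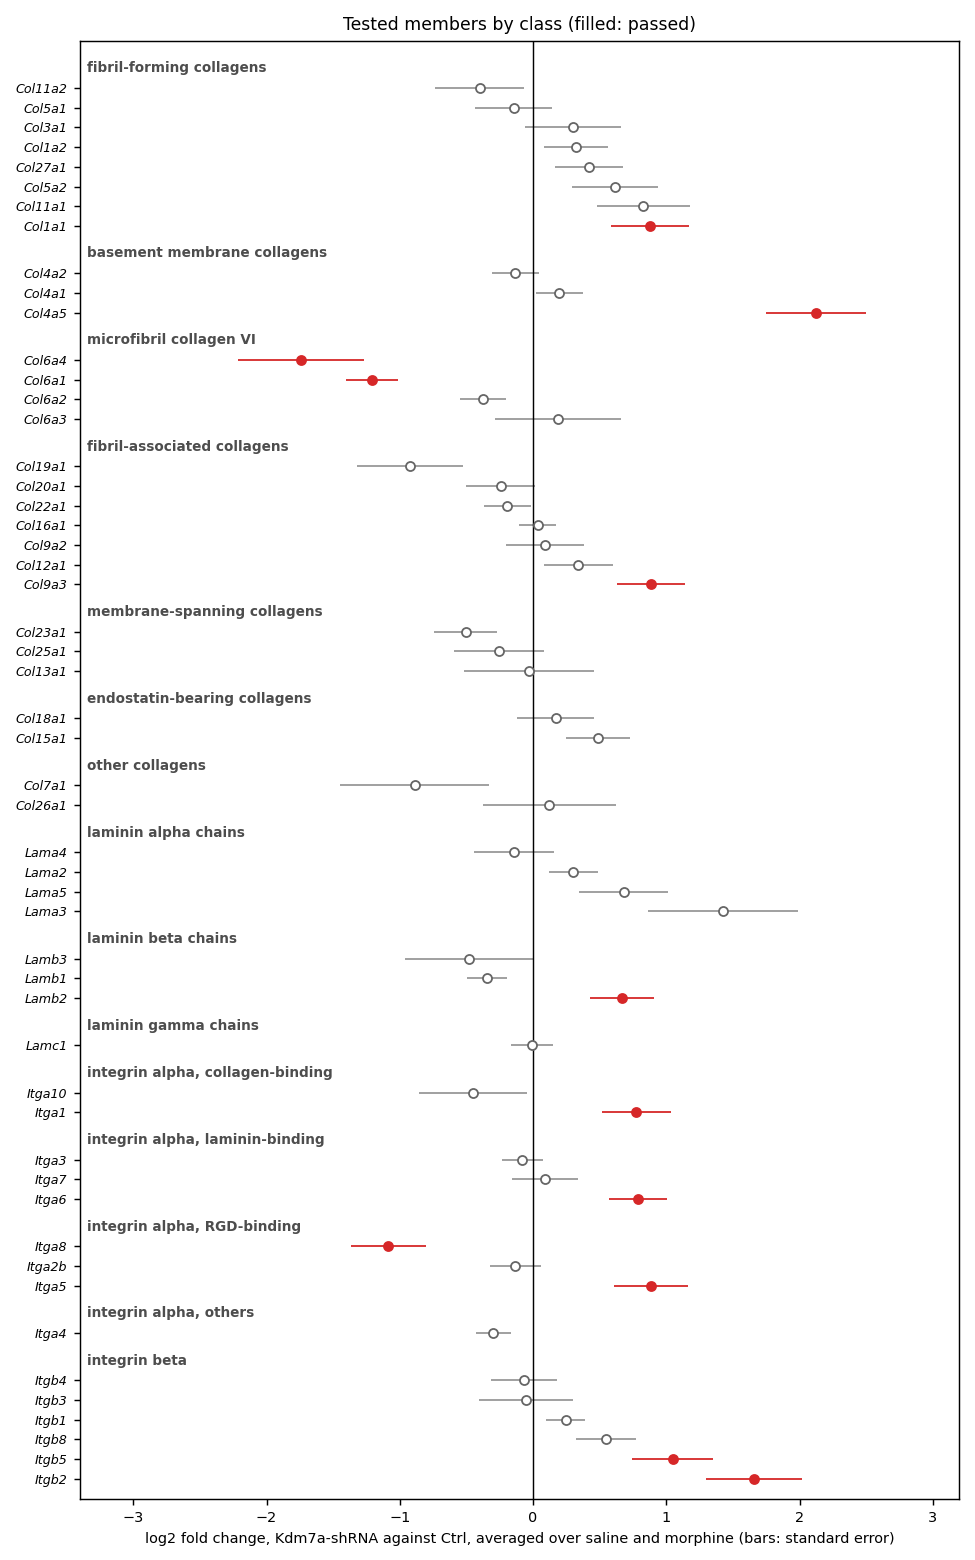
Difference between Kdm7a-shRNA and Ctrl mice averaged over saline and morphine for 52 of the 53 tested genes, as log2 fold change with its standard error, by class. Filled red points passed, and they run from Col6a4 at -1.74 and Col6a1 at -1.21 to Itgb2 at 1.66 and Col4a5 at 2.12. Col6a4 could be tested only through the Ctrl + Morphine mice, where it was highest.

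Of the 4 tested chains of collagen VI, Col6a1 and Col6a4 fell with the Kdm7a-shRNA virus on average, where 2.12% of known genes fell. Col6a4 could be tested only through the Ctrl + Morphine mice, where it was highest, so its fall adds no support to that of Col6a1. Col6a1 (ENSMUSG00000001119, chromosome 10, 76708792 to 76726168 on GRCm38) encodes an alpha chain present in every collagen VI microfibril. Its normalized CPM was 11.1, 10.3 and 9.27 in Ctrl + Saline and 18.7, 12.5, 10.7 and 18.8 in Ctrl + Morphine mice. In Kdm7a-shRNA mice it was 7.58, 2.65, 2.96, 5.40 and 4.92 with saline and 4.29, 6.23, 7.39 and 6.58 with morphine. The lowest Ctrl mouse was thus above the highest Kdm7a-shRNA mouse, under both treatments. Col6a1 fell by 1.12 ± 0.28 (SE) on the log2 scale under saline (adjusted p = 0.0116), and by 1.30 ± 0.27 (SE) under morphine (adjusted p = 0.00920). The averaged fall of 1.21 ± 0.20 (SE) had an adjusted p-value of 2.97e-04 and passed with any mouse left out. Of 5 deep layer projection neuron markers, Crym and Bcl11b fell on average, and the sum of the 5, of which Crym had the most counts, was 153 to 231 normalized CPM in the 7 Ctrl mice and 57.0 to 140 in the 9 Kdm7a-shRNA mice. The part of these markers in the result was not tested.

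The other chains of collagen VI were measured less precisely. Col6a4 encodes a longer alpha chain (chromosome 9, 105989454 to 106096783), and an antisense gene, Gm47575, lies across it. It had counts of 4, 8 and 1 in Ctrl + Saline, 15, 8, 10 and 10 in Ctrl + Morphine, 1, 1, 1, 0 and 4 in Kdm7a-shRNA + Saline and 4, 4, 1 and 1 in Kdm7a-shRNA + Morphine mice. All 4 Ctrl + Morphine mice had more reads than any Kdm7a-shRNA mouse, and Ctrl + Saline mice 1 and 3 lay within the Kdm7a-shRNA range. The averaged log2 difference was -1.74 ± 0.47 (SE, adjusted p = 0.0110). Without Ctrl + Saline mouse 2 the adjusted p-value was 0.0748, and without Ctrl + Morphine mouse 1, 3 or 4 too few reads were left to test it. The call of Col6a4 thus rests on the same group that let it be tested. Col6a2, which is needed beside Col6a1 in the microfibril, had an averaged log2 difference of -0.38 ± 0.17 (SE, adjusted p = 0.114), and Col6a3 one of 0.19 ± 0.47 (SE, adjusted p = 0.806).

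Of the 3 tested chains of collagen IV, 1 rose and none fell on average, where 9.17% of known genes rose and 2.12% fell. Col4a5 (ENSMUSG00000031274, chromosome X, 141475385 to 141689234) encodes an alpha chain of collagen IV that stands beside Col4a6 on the chromosome, with start sites 1309 bases apart. It had a normalized CPM of 0.529, 0.683 and 0.132 in Ctrl + Saline mice, from counts of 4, 7 and 1, and of 2.50, 1.17, 1.70 and 1.60 in Ctrl + Morphine mice. With the Kdm7a-shRNA virus it reached 3.22, 4.38, 6.75, 3.04 and 5.73 under saline, and 3.37, 3.72, 5.76 and 0.671 under morphine. All 5 Kdm7a-shRNA + Saline mice were far above the 3 Ctrl + Saline mice, whereas Kdm7a-shRNA + Morphine mouse 4 lay below every Ctrl + Morphine mouse. The log2 fold change was 3.27 ± 0.59 (SE) under saline (adjusted p = 0.00165) and 0.98 ± 0.45 (SE) under morphine (adjusted p = 0.183), where it was 1.30 without Kdm7a-shRNA + Morphine mouse 4 and passed (adjusted p = 0.0252). Averaged, it was 2.12 ± 0.37 (SE, adjusted p = 5.42e-04), and it passed under saline and on average with any mouse left out. The difference between the effects under the 2 treatments, -2.29 ± 0.76 (SE), did not pass (adjusted p = 0.252).

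The common collagen IV pair did not pass. Col4a1 and Col4a2 start 21 bases apart on opposite strands of chromosome 8 and together make most of the collagen IV of vessels. Their averaged log2 differences were 0.20 ± 0.18 (SE, adjusted p = 0.437) and -0.13 ± 0.18 (SE, adjusted p = 0.618). Of the 3 remaining chains, each with at most 17 counts in a mouse and so not tested, Col4a4 had counts of 0, 1 and 0 in Ctrl + Saline mice and 0 in all 4 Ctrl + Morphine mice. It had 3, 2, 4, 1 and 5 in Kdm7a-shRNA + Saline and 2, 2, 4 and 2 in Kdm7a-shRNA + Morphine mice. Every Kdm7a-shRNA mouse thus had at least 1 read of Col4a4, and 1 of 7 Ctrl mice did. Only when no filter on low counts was applied could it be tested, and it then passed on average, where 15.3% of all genes did. Col4a4 was named after its values were seen, so this is a description. The viruses overlapped for the other untested chains. Col4a3 was at 0 to 0.195 normalized CPM in Ctrl and 0 to 0.450 in Kdm7a-shRNA mice. Col4a6 was at 0 to 0.899 in Ctrl and 0.268 to 1.46 in Kdm7a-shRNA mice. Endothelial marker sums over 10 genes were 195 to 242 normalized CPM in Ctrl mice and 226 to 408 in Kdm7a-shRNA mice, and their part was not tested.

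Laminins link the collagen IV sheet to cell receptors. Of 9 tested laminin chains 1 rose on average and none fell, where 9.17% of known genes rose and 2.12% fell. Lamb2, a beta chain of vascular and synaptic basement membranes, had 4.05 ± 1.07 (SD, n = 3) normalized CPM in Ctrl + Saline, 4.94 ± 1.30 (SD, n = 4) in Ctrl + Morphine, 7.15 ± 2.82 (SD, n = 5) in Kdm7a-shRNA + Saline and 6.92 ± 2.93 (SD, n = 4) in Kdm7a-shRNA + Morphine mice. The groups overlapped, and the highest values were 11.1 in Kdm7a-shRNA + Morphine mouse 3 and 10.3 in Kdm7a-shRNA + Saline mouse 2. Its averaged log2 difference was 0.67 ± 0.24 (SE, adjusted p = 0.0464). The call was lost in 9 of 16 fits that left out a mouse, with an adjusted p-value up to 0.126 without Kdm7a-shRNA + Morphine mouse 3. With every mouse kept, it was lost with library size alone (adjusted p = 0.0839) and with known genes alone (adjusted p = 0.0813). It was also lost when at least 10 counts were asked of every mouse (adjusted p = 0.0623). Lamb1, the alternative beta chain, had an averaged difference of -0.35 ± 0.15 (SE, adjusted p = 0.0949). Lamc1, the gamma chain of most laminins, differed by -0.01 ± 0.16 (SE, adjusted p = 0.978). Of the alpha chains, Lama2 had 0.30 ± 0.18 (SE, adjusted p = 0.236) and Lama4 -0.14 ± 0.30 (SE, adjusted p = 0.761).

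Fibril-forming collagens are the tensile cords of connective tissue and are scarce in brain. Col1a1, a chain of collagen I (chromosome 11, 94936224 to 94953042), had a normalized CPM of 1.19, 0.976 and 0.397 in Ctrl + Saline and 2.90, 1.28, 1.83 and 0.642 in Ctrl + Morphine mice. In Kdm7a-shRNA mice it was 2.99, 2.65, 2.13, 2.25 and 1.41 with saline and 1.69, 2.04, 2.66 and 2.15 with morphine. Under saline the groups did not overlap, and under morphine they did. Col1a1 rose by 1.39 ± 0.44 (SE) on the log2 scale under saline (adjusted p = 0.0338), and the averaged difference was 0.88 ± 0.29 (SE, adjusted p = 0.0315). Ctrl + Saline mice had 3 to 10 counts of it, and the call was lost in 5 of 8 fits under saline that left out a mouse, with an adjusted p-value up to 0.165 without Ctrl + Saline mouse 3. The averaged call was lost in 7 of 16 such fits, with an adjusted p-value up to 0.0979, with scaling by library size alone (adjusted p = 0.0549) and with known genes alone (adjusted p = 0.0581). The saline call of Col1a1 was also lost with known genes alone (adjusted p = 0.0596). Its partner Col1a2 had an averaged difference of 0.32 ± 0.24 (SE, adjusted p = 0.341). The sum of 8 fibroblast and meningeal markers was 37.2 to 96.0 normalized CPM in Ctrl and 57.3 to 106 in Kdm7a-shRNA mice, and its part was not tested.

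Col11a1, a minor chain that sets fibril width (chromosome 3, 114030540 to 114220718), passed under morphine. Its counts were 5, 14 and 11 in Ctrl + Saline, 3, 6, 2 and 2 in Ctrl + Morphine, 4, 11, 11, 9 and 13 in Kdm7a-shRNA + Saline and 4, 10, 26 and 5 in Kdm7a-shRNA + Morphine mice. On the normalized scale Ctrl + Morphine mice were at 0.214 to 0.640 CPM and Kdm7a-shRNA + Morphine mice at 0.613 to 2.23, so the groups touched. Its log2 fold change was 1.78 ± 0.52 (SE, adjusted p = 0.0385) under morphine and -0.13 ± 0.47 (SE, adjusted p = 0.877) under saline. The difference between the 2 did not pass (1.90 ± 0.70 (SE), adjusted p = 0.301). The call under morphine was lost in 5 of 8 fits that left out a mouse, with an adjusted p-value of 0.210 without Kdm7a-shRNA + Morphine mouse 3, which held the most counts. That call was also lost with known genes alone (adjusted p = 0.0698). Col11a2, the fibril-forming chain with the next most reads after Col1a2, had an averaged difference of -0.40 ± 0.33 (SE, adjusted p = 0.397).

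Fibril-associated collagens sit on the surface of fibrils. Col9a3, a chain of collagen IX (chromosome 2, 180597790 to 180622189), had 3.97, 4.49 and 3.71 normalized CPM in Ctrl + Saline and 3.99, 3.41, 4.87 and 2.78 in Ctrl + Morphine mice. It had 7.35, 7.83, 8.29, 3.37 and 10.5 in Kdm7a-shRNA + Saline and 6.44, 6.23, 11.9 and 2.95 in Kdm7a-shRNA + Morphine mice. In each group, all Kdm7a-shRNA mice but 1 were above every Ctrl mouse. The averaged log2 difference of 0.88 ± 0.26 (SE) had an adjusted p-value of 0.0153 and kept its call with any mouse left out, although it passed under neither treatment alone (adjusted p = 0.102 under saline and 0.117 under morphine). Tcfl5 overlaps Col9a3 on the other strand, and the use of strand in counting is not given in the sources used here. Col16a1, with the most reads of this class, had an averaged difference of 0.03 ± 0.14 (SE, adjusted p = 0.884). The membrane-spanning collagens Col25a1 and Col13a1 differed by -0.26 ± 0.34 (SE, adjusted p = 0.611) and -0.03 ± 0.49 (SE, adjusted p = 0.974). Col15a1 and Col18a1, the endostatin-bearing collagens of vessel walls, differed by 0.49 ± 0.24 (SE, adjusted p = 0.142) and 0.17 ± 0.29 (SE, adjusted p = 0.70). Col26a1 and Col7a1, from the remaining collagens, differed by 0.12 ± 0.50 (SE, adjusted p = 0.884) and -0.89 ± 0.56 (SE, adjusted p = 0.256).

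**Figure D3:**
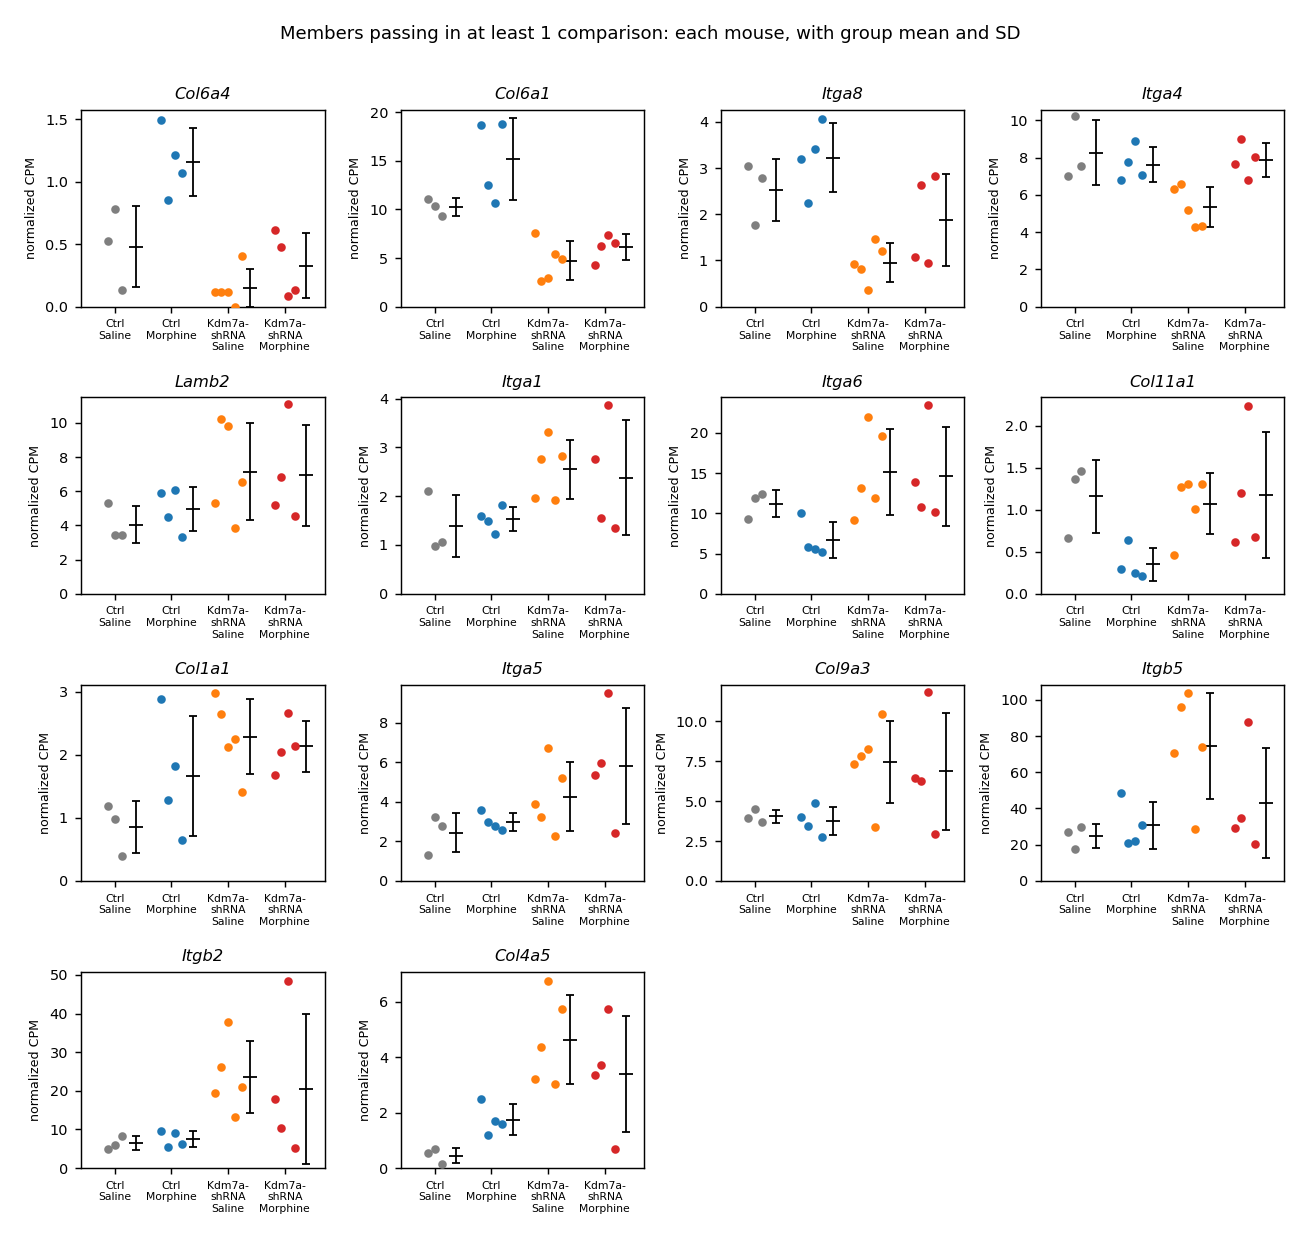
Normalized CPM of each mouse for the 14 genes that passed in at least 1 comparison, by group, with the group mean and SD beside the points. Col6a1 lay between 9.27 and 18.8 in Ctrl mice and between 2.65 and 7.58 in Kdm7a-shRNA mice, and Itgb2 reached 48.5 in a Kdm7a-shRNA + Morphine mouse.

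Integrin beta subunits gave the largest averaged rises that passed after Col4a5. Itgb2 (ENSMUSG00000000290, chromosome 10, 77530252 to 77565708), or CD18, is the shared beta subunit of leukocyte integrins and in brain is carried by microglia. Ctrl mice had a normalized CPM of 4.89, 6.05 and 8.35 with saline and 9.68, 5.44, 9.01 and 6.21 with morphine. Kdm7a-shRNA mice had 19.3, 26.0, 37.9, 13.2 and 21.0 with saline and 17.8, 10.4, 48.5 and 5.23 with morphine. Apart from Kdm7a-shRNA + Morphine mouse 4, every Kdm7a-shRNA mouse was above every Ctrl mouse. Itgb2 rose by 1.87 ± 0.53 (SE) on the log2 scale under saline (adjusted p = 0.0207), while under morphine the fold change of 1.45 ± 0.48 (SE) did not pass (adjusted p = 0.0660). Without Kdm7a-shRNA + Morphine mouse 4 it was 1.77 and passed (adjusted p = 0.0134), as it did without mouse 2 of that group (adjusted p = 0.0472). The averaged rise was 1.66 ± 0.36 (SE, adjusted p = 0.00245) and passed with any mouse left out. Under saline the call was lost without any single Ctrl + Saline mouse, with adjusted p-values of 0.0582 to 0.0756.

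Itgb5 (ENSMUSG00000022817, chromosome 16, 33829665 to 33949338) had the most reads of all 74 genes. Its normalized CPM was 27.1, 17.5 and 29.8 in Ctrl + Saline and 48.7, 20.9, 22.0 and 30.9 in Ctrl + Morphine mice. It was 70.9, 96.0, 104, 28.7 and 74.1 in Kdm7a-shRNA + Saline and 29.4, 35.0, 87.6 and 20.4 in Kdm7a-shRNA + Morphine mice. Under saline 4 of 5 Kdm7a-shRNA mice were above all Ctrl mice, and under morphine 1 of 4 was. The log2 fold change was 1.59 ± 0.45 (SE, adjusted p = 0.0200) under saline and 0.50 ± 0.41 (SE, adjusted p = 0.484) under morphine, and 1.05 ± 0.30 (SE, adjusted p = 0.0157) on average. The saline call was lost without Ctrl + Saline mouse 2 (adjusted p = 0.0937) or 3 (adjusted p = 0.0599), and the averaged call with none. Under morphine the fold change turned to -0.12 without Kdm7a-shRNA + Morphine mouse 3 (adjusted p = 0.902). Itgb1 had 31.2 ± 1.12 (SD, n = 3), 35.5 ± 6.58 (SD, n = 4), 41.5 ± 7.11 (SD, n = 5) and 37.4 ± 13.8 (SD, n = 4) normalized CPM in turn in the Ctrl mice with saline and with morphine and in the Kdm7a-shRNA mice with saline and with morphine, and its averaged difference of 0.25 ± 0.15 (SE) did not pass (adjusted p = 0.232). Itgb8, an astrocyte subunit, had an averaged difference of 0.55 ± 0.23 (SE, adjusted p = 0.0806).

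Microglia markers were also higher in Kdm7a-shRNA mice. The sum of 8 microglia markers, among them Trem2 and C1qa, was 1105, 788 and 1156 normalized CPM in Ctrl + Saline and 1037, 509, 912 and 910 in Ctrl + Morphine mice. It was 2271, 3444, 4970, 1692 and 3966 in Kdm7a-shRNA + Saline and 1892, 1585, 4684 and 1077 in Kdm7a-shRNA + Morphine mice. The 4 mice with the highest sums were also those with the highest Itgb5 and Col4a5. The Kdm7a-shRNA mouse with the lowest sum had the lowest Itgb2, Itgb5 and Col4a5 of the 9, as the mouse by mouse bars show. Other mice did not follow this order. Col4a5 was at 1.17 to 2.50 normalized CPM in Ctrl + Morphine and 0.132 to 0.683 in Ctrl + Saline mice, whose sums were not lower. Ctrl + Morphine mouse 1, with a sum of 1037, had 48.7 of Itgb5. Kdm7a-shRNA + Saline mouse 4 (28.7) and Kdm7a-shRNA + Morphine mice 1 (29.4) and 2 (35.0) had less, with higher sums. Of the 8 markers, 7 rose on average, where 9.17% of known genes rose, and none was at 0 in any mouse. Their part in the rises of Itgb2, Itgb5 and Col4a5 was not tested.

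**Figure D4:**
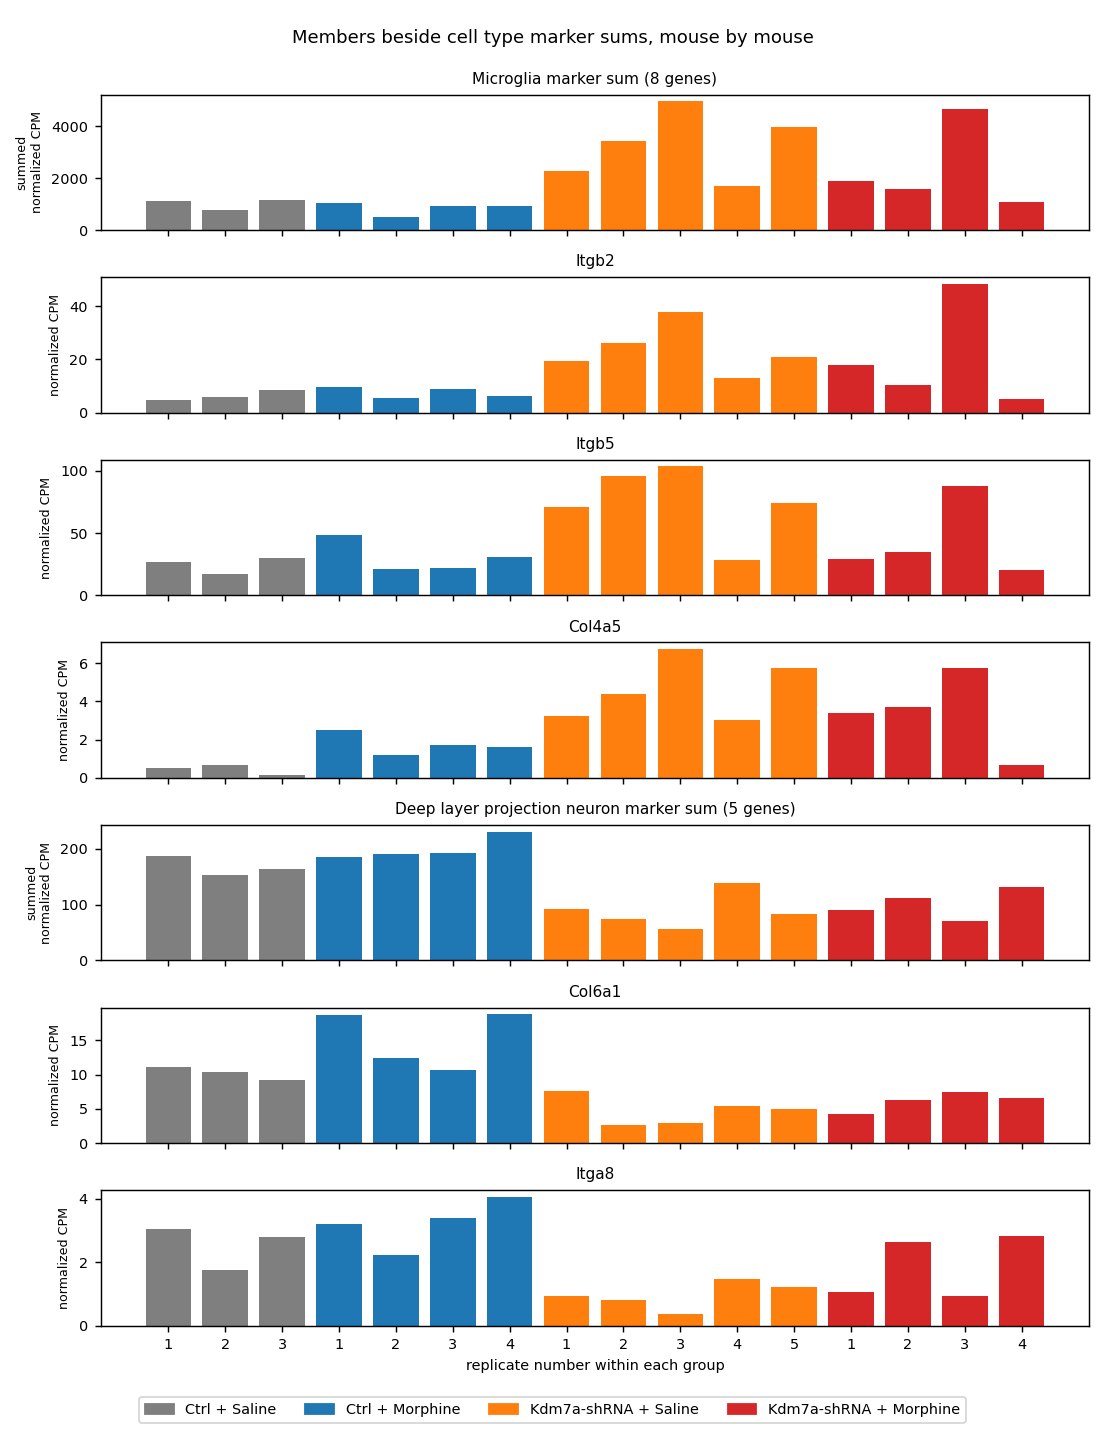
Each bar is 1 mouse, coloured by group: normalized CPM of Itgb2, Itgb5, Col4a5, Col6a1 and Itga8, beside the summed normalized CPM of 8 microglia and 5 deep layer projection neuron markers. The microglia sum ran from 509 to 1156 in Ctrl mice and from 1077 to 4970 in Kdm7a-shRNA mice, and the deep layer sum from 153 to 231 and from 57.0 to 140.

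Alpha subunits moved both ways. Itga8 pairs with Itgb1 to bind ligands that carry the RGD motif (ENSMUSG00000026768, chromosome 2, 12106632 to 12301922), and the antisense gene E030013I19Rik overlaps it. Its normalized CPM was 3.04, 1.76 and 2.78 in Ctrl + Saline and 3.19, 2.24, 3.41 and 4.07 in Ctrl + Morphine mice. In Kdm7a-shRNA mice it was 0.919, 0.806, 0.355, 1.46 and 1.21 with saline and 1.07, 2.64, 0.945 and 2.82 with morphine. No Kdm7a-shRNA + Saline mouse reached the lowest Ctrl mouse, while 2 Kdm7a-shRNA + Morphine mice lay within the Ctrl range. Itga8 fell by 1.37 ± 0.41 (SE) on the log2 scale under saline (adjusted p = 0.0267), and its fold change under morphine was -0.80 ± 0.38 (SE, adjusted p = 0.191). On average it fell by 1.09 ± 0.28 (SE, adjusted p = 0.00783), with any mouse left out. The saline call was lost without Ctrl + Saline mouse 1 or 3 or Kdm7a-shRNA + Saline mouse 2 or 3, with adjusted p-values up to 0.0948.

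Itga4, whose product binds fibronectin and VCAM1 (chromosome 2, 79255426 to 79333123, overlapped by Cerkl on the other strand), fell under saline. Its normalized CPM was 7.0, 10.2 and 7.55 in Ctrl + Saline and 6.32, 6.57, 5.21, 4.27 and 4.32 in Kdm7a-shRNA + Saline mice. Those groups did not overlap, but the steps were small. With morphine it was 6.79, 7.79, 8.89 and 7.06 in Ctrl and 7.66, 8.99, 6.79 and 8.05 in Kdm7a-shRNA mice, which is the same range. Itga4 fell by 0.64 ± 0.19 (SE) on the log2 scale under saline (adjusted p = 0.0265), and differed by 0.04 ± 0.19 (SE, adjusted p = 0.910) under morphine. The difference between the 2 effects, 0.68 ± 0.27 (SE), did not pass (adjusted p = 0.343). The saline call was lost in 4 of 8 fits that left out a mouse, and without Ctrl + Saline mouse 2 the adjusted p-value was 0.187. It was also lost in the fit of the compared groups alone (adjusted p = 0.0557) and with the replicate number as a block (adjusted p = 0.0830).

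Itga6, a laminin receptor subunit (chromosome 2, 71745616 to 71858416), had 9.25, 11.9 and 12.5 normalized CPM in Ctrl + Saline and 9.98, 5.76, 5.60 and 5.24 in Ctrl + Morphine mice. It had 9.19, 13.1, 21.9, 11.9 and 19.6 in Kdm7a-shRNA + Saline and 13.9, 10.8, 23.5 and 10.2 in Kdm7a-shRNA + Morphine mice. With morphine the lowest Kdm7a-shRNA mouse was just above the highest Ctrl mouse, and with saline the groups overlapped. Itga6 rose by 1.14 ± 0.31 (SE) on the log2 scale under morphine (adjusted p = 0.0268) and by 0.79 ± 0.22 (SE) on average (adjusted p = 0.0124). The morphine call was lost in 5 of 8 fits that left out a mouse, with an adjusted p-value of 0.127 without Kdm7a-shRNA + Morphine mouse 3, and the averaged call in none. With every mouse kept, the morphine call was lost with the compared groups alone (adjusted p = 0.0577) and with known genes alone (adjusted p = 0.0512). The other laminin-binding subunits, Itga7 and Itga3, had averaged differences of 0.09 ± 0.25 (SE, adjusted p = 0.822) and -0.08 ± 0.16 (SE, adjusted p = 0.747).

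Itga5, the fibronectin receptor subunit (chromosome 15, 103344286 to 103366763), had 2.44 ± 0.994 (SD, n = 3) normalized CPM in Ctrl + Saline, 2.99 ± 0.440 (SD, n = 4) in Ctrl + Morphine, 4.27 ± 1.76 (SD, n = 5) in Kdm7a-shRNA + Saline and 5.83 ± 2.92 (SD, n = 4) in Kdm7a-shRNA + Morphine mice. Its averaged rise of 0.88 ± 0.28 (SE, adjusted p = 0.0238) did not pass without Kdm7a-shRNA + Morphine mouse 3 (adjusted p = 0.0636) or Ctrl + Saline mouse 1 (adjusted p = 0.0664). Itga1, a collagen receptor subunit (chromosome 13, 114953096 to 115101964), contains the gene Pelo on the same strand, so that reads of both may be counted together. It had 1.38 ± 0.635 (SD, n = 3), 1.53 ± 0.250 (SD, n = 4), 2.55 ± 0.606 (SD, n = 5) and 2.38 ± 1.17 (SD, n = 4) normalized CPM in the same order of groups. The averaged rise of 0.78 ± 0.26 (SE, adjusted p = 0.0312) was lost in 7 of 16 fits that left out a mouse, with an adjusted p-value up to 0.0967. With every mouse kept, it was lost with library size alone (adjusted p = 0.0569), known genes alone (adjusted p = 0.0584) and the replicate block (adjusted p = 0.0523). In both genes the Ctrl and Kdm7a-shRNA mice overlapped and Kdm7a-shRNA + Morphine mouse 3 was the highest of all, at 9.54 for Itga5 and 3.87 for Itga1. Itga2b, a platelet subunit, and Itga10, a further collagen receptor subunit, had averaged differences of -0.13 ± 0.19 (SE, adjusted p = 0.646) and -0.45 ± 0.40 (SE, adjusted p = 0.434).

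**Figure D5:**
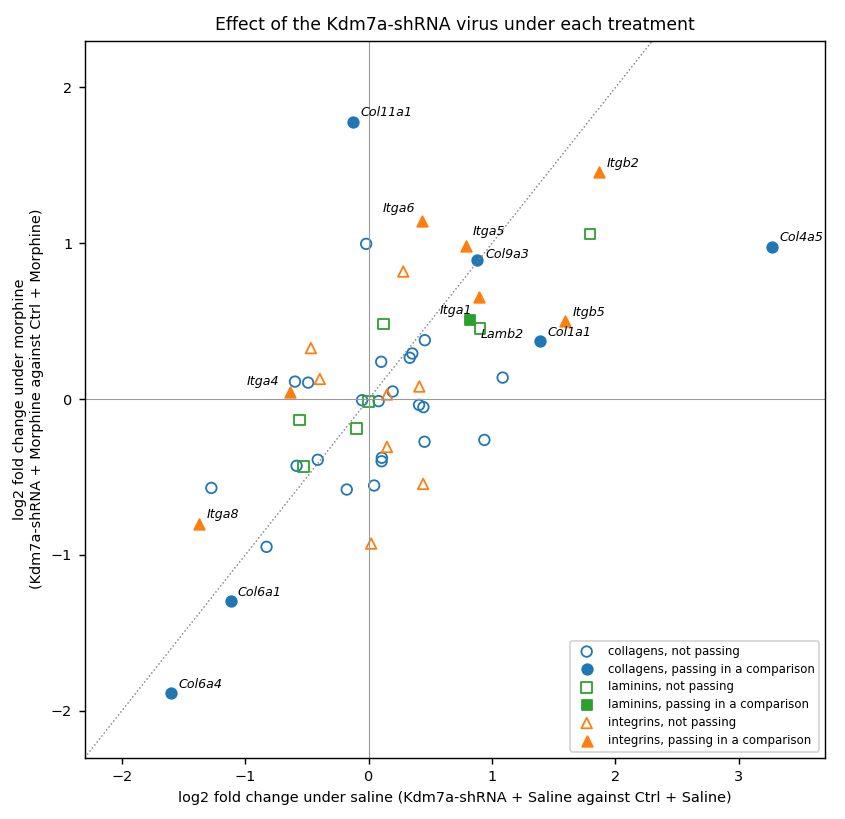
Log2 fold change of Kdm7a-shRNA against Ctrl mice under saline (x axis) and under morphine (y axis) for 52 of the 53 tested genes, with filled symbols for the 14 that passed in a comparison and a dotted line at equal effects. Col6a1 lies at -1.12 and -1.30 and Itgb2 at 1.87 and 1.45, while Col4a5 lies at 3.27 and 0.98 and Col11a1 at -0.13 and 1.78. The 2 axes rest on different mice.

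Morphine by itself moved none of the 53 genes past the threshold. Between Ctrl + Morphine and Ctrl + Saline mice 0 passed in edgeR's quasi-likelihood test, where 0% of all genes did, and 0 with DESeq2 or edgeR's exact test, where 0.983% and 0.861% of all genes did. An unadjusted p-value under 0.05 was found for 8 of the 53 in the quasi-likelihood test, and for 11.7% of all genes. The smallest adjusted p-value was that of Itga3, a laminin receptor subunit, with 4.23, 5.17 and 5.03 normalized CPM in Ctrl + Saline and 6.89, 8.75, 10.6 and 7.70 in Ctrl + Morphine mice. These groups did not overlap, but its log2 fold change of 0.81 ± 0.24 (SE) had an adjusted p-value of 0.179. Col11a1 followed with -1.70 ± 0.56 (SE, adjusted p = 0.236). Between Kdm7a-shRNA + Morphine and Kdm7a-shRNA + Saline mice 0 passed in the same test, where 0.00531% of all genes did, and 0 with DESeq2 or the exact test, where 0.106% and 0.0797% did. Unadjusted p-values under 0.05 were found for 5 of the 53 and for 7.02% of all genes. The smallest adjusted p-values were those of Itga4, at 0.56 ± 0.18 (SE, adjusted p = 0.589), and Itga10, at -1.65 ± 0.57 (SE, adjusted p = 0.619). For the difference between the virus effects under morphine and under saline, 0 of 53 passed in edgeR's quasi-likelihood test, where 0.085% of all genes did, and 0 with DESeq2, where 1.15% did. In the quasi-likelihood test 5 of the 53 had an unadjusted p-value under 0.05, as did 10.7% of all genes.

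Genes that make, bind and cut this matrix were described from lists of known partners. On average 9.17% of known genes rose and 2.12% fell. Of 11 tested basement membrane partners, 2 rose on average and none fell: Smoc1, a calcium-binding matrix protein, by 1.24 ± 0.20 (SE, adjusted p = 2.75e-04) and Sparc, a collagen-binding glycoprotein, by 0.62 ± 0.21 (SE, adjusted p = 0.0367). Of 19 tested genes of collagen processing 3 rose, the lysyl hydroxylases Plod3 by 0.73 ± 0.17 (SE, adjusted p = 0.00445) and Plod1 by 0.78 ± 0.23 (SE, adjusted p = 0.0162) and the prolyl hydroxylase subunit P4hb by 0.64 ± 0.13 (SE, adjusted p = 0.00163). P4hb and Plod3 also rose under saline, but none of these 3 rose under morphine. P4ha2, of the same list, fell under morphine by 0.81 ± 0.24 (SE, adjusted p = 0.0441), where 1.27% of known genes fell. The lists were chosen with earlier results of these data known and the counts are given as a description. Of 10 tested matrix proteases and inhibitors 2 rose and 1 fell: the inhibitor Timp1 rose by 1.37 ± 0.38 (SE, adjusted p = 0.0117) and the gelatinase Mmp2 by 0.98 ± 0.32 (SE, adjusted p = 0.0305), and the membrane protease Mmp16 fell by 0.86 ± 0.14 (SE, adjusted p = 3.10e-04).

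Inside the cell, 6 of 26 tested integrin adaptors and partners rose and none fell on average, where 9.17% of known genes rose. Parva, which ties integrins to actin, rose by 0.88 ± 0.14 (SE, adjusted p = 1.97e-04), and its relative Parvb by 0.62 ± 0.14 (SE, adjusted p = 0.00357). The other rises were in genes of blood cells and microglia: Itgax by 2.28 ± 0.38 (SE, adjusted p = 3.40e-04) and Itgam by 1.24 ± 0.29 (SE, adjusted p = 0.00437), which are alpha partners of Itgb2, the kindlin Fermt3 by 1.21 ± 0.25 (SE, adjusted p = 0.00176) and the adaptor Apbb1ip by 1.26 ± 0.42 (SE, adjusted p = 0.0328). The alpha subunits Itgav, Itgal and Itgae, also on this list, were not among the 6. The medians of the 4 lists were 0.40, 0.23, 0.34 and 0.38, in the order partners, processing, proteases and adaptors, against 0.07 over all tested known genes. Among the marker lists, besides microglia, 2 of 10 endothelial (Pecam1 and Cldn5), 2 of 9 pericyte and smooth muscle (Acta2 and Tagln), 3 of 7 astrocyte (Aldh1l1, Aqp4 and Gfap) and 2 of 3 tested choroid plexus and ependyma markers (Foxj1 and Folr1) rose on average. Crym and Bcl11b of 5 deep layer, Lamp5 of 4 upper layer and Gad2 of 7 neuron markers fell, where 2.12% of known genes did, Pvalb rose and Sst fell, and none of 8 fibroblast and meningeal, 6 oligodendrocyte and 3 tested neutrophil and monocyte markers passed. Folr1 was at 0 in 5 mice, the choroid plexus marker Kl in 3 and the neutrophil marker Ly6g in 13.

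Of the 53 tested genes, 15 further ones passed in no comparison: Col3a1, Col5a1, Col5a2, Col9a2, Col12a1, Col19a1, Col20a1, Col22a1, Col23a1, Col27a1, Lama3, Lama5, Lamb3, Itgb3 and Itgb4. Their averaged log2 differences ran from -0.92 ± 0.40 (SE, adjusted p = 0.0930) for Col19a1 to 1.43 ± 0.56 (SE, adjusted p = 0.0690) for Lama3. The other 21 genes had too few reads to be tested, with 5 to 105 counts summed over all 16 mice and at most 17 in a mouse. They were Col2a1, Col4a3, Col4a4, Col4a6, Col5a3, Col6a5, Col6a6, Col8a1, Col8a2, Col9a1, Col10a1, Col14a1, Col17a1, Col24a1, Col28a1, Lama1, Lamc3, Itga2, Itga9, Itga11 and Itgb7. Itga9, the tenascin receptor subunit, had the most reads of them and Col10a1, the collagen of growing cartilage, the fewest. At this depth 3 counts, taken as the limit below which a gene counts as not detected, correspond to 0.258 to 0.460 CPM depending on the mouse. The filter on low counts, and not this limit, decided which genes were tested, since Itga9 had 3 to 15 counts in every mouse. Whether these 21 genes differed was not tested with that filter.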

How the data were processed

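RNA of the mPFC of 16 mice was sequenced as long cDNA reads. Per the labels and the study's methods, the authors dropped short and poor reads and rRNA, placed full-length reads on mm10 by minimap2 with Pinfish, merged redundant ones by cDNA Cupcake, and deposited raw read counts per gene, with CPM values by the authors beside them. The use of strand in counting is not given in the sources used here. The tests used the deposited counts, and CPM was recomputed with TMM scaling. edgeR 4.0.16 in R 4.3.3 (filterByExpr, TMM, quasi-likelihood test over all 16 mice and 4 groups) gave 6 comparisons, with Benjamini-Hochberg adjustment. Passing asks for an adjusted p-value below 0.05 together with a change of 1.5-fold or more, and SE is the log2 fold change over the root of F. Replicates of a group correlated with r of 0.951 to 0.981 over log2 CPM, and no pair was within sampling noise. The named genes are all that passed, the 2 with the most counts in each role class, the 2 with the smallest adjusted p-value where none passed, and Kdm7a. Col4a2, Col4a3, Col4a4, Col4a6, Col6a3, Col19a1, Lama3 and Itgb8 were named after their values were seen. The genes and lists were chosen with earlier results of these data known. Other settings were RLE scaling, library size alone, no filter, at least 10 counts in every mouse, the compared groups alone, DESeq2 1.42.0, edgeR's exact test, a replicate block, the adjusted p-value alone, known genes alone, and each mouse left out. A gene of the set is not reported singly here.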

Additional observations from a re-analysis of the deposited data

Results flagged for a closer look

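Among 111 sets of 4 or 5 mice of a group, over 37 named genes, 6 held a mouse far from the rest by Dixon's test, which chance gives in about 1 in 20. Kdm7a-shRNA + Morphine mouse 3, the most deeply sequenced, had 2.49 normalized CPM of Col6a2, where the rest of its group had 1.80 to 1.88, and 58.1 of Itgb1, where the rest had 29.7 to 31.9. Ctrl + Morphine mouse 4 had 2.78 of Col7a1, the anchoring fibril collagen, against 0.640 to 0.998. Ctrl + Morphine mouse 1 had 9.98 of Itga6 against 5.24 to 5.76. Lama2, the alpha chain of muscle and vessel laminin, was at 1.69 in Kdm7a-shRNA + Morphine mouse 1 against 3.0 to 3.26, and at 4.49 in Kdm7a-shRNA + Saline mouse 2 against 2.87 to 3.32.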

How the results depend on the processing

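The 76 gene values of 40 genes whose dependence was computed gave 1566 values over all settings: 1425 kept their direction and side of the threshold, 69 fell short of it, 31 came to pass it and 41 had the other sign. The 41 belonged to 10 genes, none of which passed in the comparison concerned. With library size alone the sign turned for Col16a1 (-0.088), Col26a1 (-0.00047), Itga7 (-0.035) on average and Itga4 under morphine (-0.062), with known genes alone for Col16a1 (-0.030) on average and Itga4 under morphine (-0.00016), and with the replicate block for Col26a1 (-0.12), Itga3 (0.0068) and Lamc1 (0.054) on average. With a mouse left out, averaged log2 differences ran from -0.30 to 0.42 for Col13a1, -0.022 to 0.10 for Col16a1, -0.032 to 0.33 for Col18a1, -0.071 to 0.51 for Col26a1, -0.13 to 0.25 for Itga7 and -0.11 to 0.075 for Lamc1. Those of Itga4 and Itgb5 under morphine ran from -0.028 to 0.12 and -0.12 to 0.82, and that of Col11a1 under saline from -0.43 to 0.062.

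Under morphine, 3 genes passed between the viruses, with 1 in a fit of the compared groups alone, 6 with edgeR's exact test, 5 with the replicate block, 1 with known genes alone, and 1 to 9 with a mouse left out. It was 1 without Ctrl + Morphine mouse 3 or 4 or Kdm7a-shRNA + Morphine mouse 3, and 9 without Kdm7a-shRNA + Morphine mouse 4. Under saline 7 passed, with 4 when at least 10 counts were asked of every mouse and 2 to 9 with a mouse left out, 3 without Ctrl + Saline mouse 2 and 2 without mouse 3. Averaged over treatments 12 passed, with 6 at 10 counts in every mouse, which leaves out genes with few reads, and 8 to 13 with a mouse left out. For the comparisons of morphine with saline under each virus and for the difference between virus effects, the count was 0 in all settings run (0 to 0 with a mouse left out). Leaving out a mouse also gave averaged calls to Lama3 (1.57 without Kdm7a-shRNA + Saline mouse 4, also without mouse 1 and without Kdm7a-shRNA + Morphine mouse 2), Itgb8 (0.64 without Kdm7a-shRNA + Morphine mouse 4, also without Kdm7a-shRNA + Saline mouse 1 or Ctrl + Morphine mouse 3), Col19a1 (-1.08 without Ctrl + Morphine mouse 1, also without Ctrl + Saline mouse 3) and Col11a1 (1.05 without Ctrl + Morphine mouse 2). Col9a3 passed under saline without Kdm7a-shRNA + Saline mouse 4 (1.06), under morphine without Kdm7a-shRNA + Morphine mouse 4 (1.14), and under both with the replicate block (0.90 and 0.79).

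The labels name no animal, litter or batch that a replicate number stands for. Over 21 pairs of mice with the same number, r of their deviations was -0.10 to 0.39, median 0.014, with 6 over 0.1. Over 74 pairs with different numbers it was -0.47 to 0.32, median -0.0072, with 13 over 0.1. These values do not settle whether the numbers mark pairs. The numbers were not taken as pairs because the labels give them no such meaning. With the replicate block 9 passed under saline, where Itga4 was lost, and 11 on average, where Itga1 was lost. Counts under about 10 reads in a mouse, as for Col6a4, Col4a4 and Col11a1, limit precision, and p-values cover the spread between these mice.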
